A study of Homo sapiens with 4 samples.

Results

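The CXC and CC chemokine genes expressed in TPC1 cells were examined with and without inhibition of the RET kinase. The set was taken by gene symbol and holds 10 of the 20372 genes in the deposited table: IL8 (the symbol the table uses for CXCL8), CXCL1, CXCL2, CXCL3, CXCL5, CXCL6, CXCL16, CCL2, CCL20 and CCL26. TPC1 is an established line from a human papillary thyroid carcinoma, driven by the CCDC6-RET fusion kinase. The tested cells received BLU6864, a selective RET inhibitor, for 6 h, and the control cells received the solvent DMSO. Each group held 2 RNA sequencing libraries. DMSO has no time in the labels but 24 h in the column names, so effects of BLU6864 and of time cannot be told apart. BLU6864 was used at 100 micromolar per the labels, whereas the study's methods give 100 nanomolar for its TPC1 expression experiment. Which unit is right for these libraries is uncertain. Total counts were 23917056 and 26829072 reads in the BLU6864 libraries and 28305571 and 23750509 reads in the DMSO libraries. Nothing in the labels says that the replicates came from separate cultures, so p-values measure only the spread between these libraries. In bulk RNA, fewer cells making a transcript and less of it per cell cannot be told apart.

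Chemokines are small secreted proteins that guide migrating cells, mostly leukocytes, by binding G protein-coupled receptors. They are sorted into CXC and CC classes by the spacing of conserved cysteines. IL8, CXCL1, CXCL2, CXCL3, CXCL5 and CXCL6 sit side by side on chromosome 4, bind CXCR2 and attract neutrophils. The CC genes lie elsewhere: CCL2 attracts monocytes through CCR2, CCL20 attracts CCR6-bearing lymphocytes and dendritic cells, and CCL26 (eotaxin-3) attracts eosinophils through CCR3. Many of these genes are switched on by IL-1 and TNF through NF-kB and AP-1, and thyroid cancer cells that carry RET fusions are known to make several of them.

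The promoter sequences of members that rose, among them CCL26, are shown beside those of members that did not. CCL26 rose most and holds no match to the NF-kB consensus. RefSeq entries (GRCh38.p14) were matched for 8 of the 10 members, and CCL2 and CXCL16 had none. In the last 150 bases before the start site, capitals mark a match to the NF-kB consensus or, for IL8, the AP-1 letters TGACTCA.
CXCL1, chr4:73869243-73869392, plus strand: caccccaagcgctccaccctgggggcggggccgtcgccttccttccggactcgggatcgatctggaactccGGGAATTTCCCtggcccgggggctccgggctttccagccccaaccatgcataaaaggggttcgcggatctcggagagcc
CXCL2, chr4:74099196-74099345, minus strand: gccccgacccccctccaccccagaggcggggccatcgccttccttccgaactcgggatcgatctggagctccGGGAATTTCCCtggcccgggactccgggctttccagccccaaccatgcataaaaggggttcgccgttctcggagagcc
CXCL3, chr4:74038690-74038839, minus strand: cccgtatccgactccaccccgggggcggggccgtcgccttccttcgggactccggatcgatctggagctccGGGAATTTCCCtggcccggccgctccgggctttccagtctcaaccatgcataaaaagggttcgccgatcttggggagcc
IL8, chr4:73740419-73740568, plus strand: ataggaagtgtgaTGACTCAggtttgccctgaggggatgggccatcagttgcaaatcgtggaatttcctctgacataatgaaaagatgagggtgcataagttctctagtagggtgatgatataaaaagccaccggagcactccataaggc
CCL20, chr2:227813692-227813841, plus strand: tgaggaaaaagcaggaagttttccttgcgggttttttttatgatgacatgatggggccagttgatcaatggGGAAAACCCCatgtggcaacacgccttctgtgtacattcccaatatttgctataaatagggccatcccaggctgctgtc
CCL26, chr7:75789747-75789896, minus strand: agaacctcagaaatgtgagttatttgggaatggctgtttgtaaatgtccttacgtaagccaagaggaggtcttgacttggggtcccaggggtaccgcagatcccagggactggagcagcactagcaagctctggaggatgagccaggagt
The 250 bases before the start were searched on both strands. The NF-kB consensus was GGGRNNYYCC, with R for A or G, Y for C or T and N for any base. It matched in 6 of the 8 promoters (CXCL1, CXCL2, CXCL3, CXCL5, CXCL6 and CCL20), against 9.96% of 35116 RefSeq promoters. In the first 5 of these it was the same string, GGGAATTTCCC, covered by a pair of overlapping matches. In CXCL1 this string ran 79 to 69 bases before the start. The promoters that hold it belong to related genes and resemble each other, so their matches are not independent. The AP-1 letters TGAGTCA or TGACTCA matched only in IL8, 137 to 131 bases before the start, and in 4.2% of all promoters. The letters TATAAA, searched on 1 strand, matched in IL8 and CCL20 and in 6.8% of all promoters. The C/EBP letters TTGCNNAA matched in CXCL2 and CCL26 (9.05% of all promoters) and the STAT letters TTCNNNGAA in CXCL5 and CXCL6 (6.57%), where they overlap the NF-kB match. The STAT6 letters TTCNNNNGAA matched in 0 of the 8, against 5.38% of all promoters. Aligned over 250 bases, the CXCL1 and CXCL3 promoters were 81.4% identical, those of CXCL2 and CXCL3 73.4%, those of CXCL5 and CXCL6 85.3%, and that of IL8 was 44.3% identical to that of CXCL1. A match is a string of letters and not a measured binding site, and a site that departs from the letters is not counted. The IL8 sequence above holds ggaatttcct, which was not counted. It differs only in its last letter from the matched GGAATTTCCC of CXCL1.

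Of the 10 chemokine genes, 8 had enough reads to be tested and 5 rose with BLU6864: CXCL1, CXCL2, CXCL3, CCL2 and CCL26. None fell, and IL8, CCL20 and CXCL16 did not pass the test. Among all 12696 tested genes, 42.2% passed in either direction, 20.3% higher and 22.0% lower (edgeR quasi-likelihood test, Benjamini-Hochberg adjusted p under 0.05). The normalized counts of the groups did not overlap, with BLU6864 higher, for 6 of the 8 tested members and for 35.1% of all tested genes. The median log2 fold change was 0.87 over the tested members and 0.01 over all tested genes. CXCL1 and CCL26 are the members with the most reads and the largest fold change among those that rose, and the plot of normalized counts by library shows both.

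**Figure D1:**
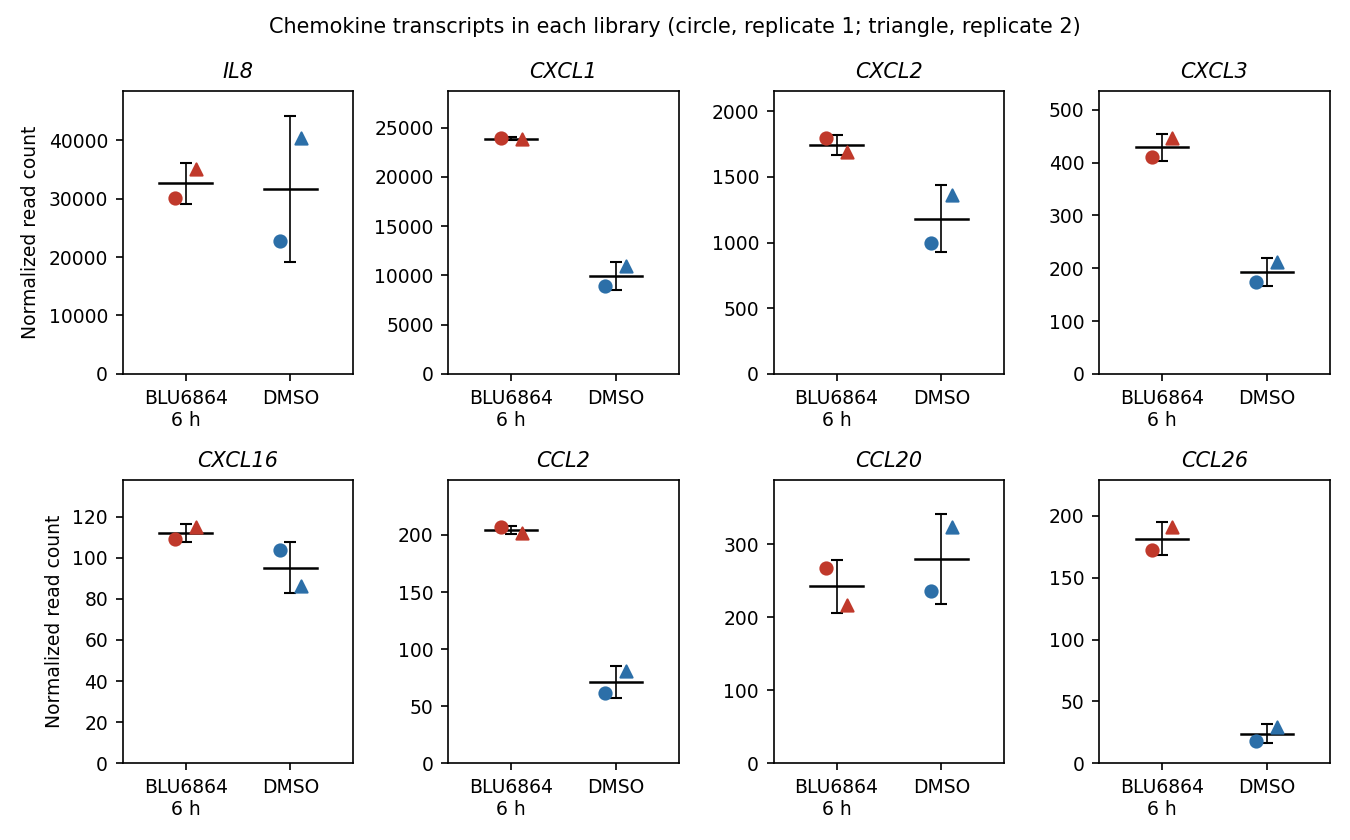
Normalized read counts (vertical axes, starting at 0) of the 8 tested chemokine genes in the BLU6864 libraries (red, left) and the DMSO libraries (blue, right), with circles for replicate 1, triangles for replicate 2, lines for the mean and bars for the SD (n = 2). For CXCL1, CXCL2, CXCL3, CCL2, CCL26 and CXCL16 both BLU6864 points lie above both DMSO points, while for IL8 and CCL20 the DMSO points lie on either side of at least 1 BLU6864 point.

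CXCL1 (ENSG00000163739, hg19 chr4:74735110-74736959), a neutrophil attractant first known as a melanoma growth factor, had 23972 and 23803 normalized counts in BLU6864 cells, against 8899 and 10962 in DMSO cells. Both BLU6864 libraries lay more than 2-fold above either DMSO library. The means were 23888 ± 119 in BLU6864 cells and 9930.3 ± 1459 in DMSO cells (SD, n = 2 each), a log2 fold change of 1.27 ± 0.13 (SE, edgeR adjusted p = 1.3e-08).

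CXCL3 (ENSG00000163734, chr4:74902306-74904524), a close relative of CXCL1, had 411 and 447 normalized counts in BLU6864 cells, against 174 and 212 in DMSO cells. The groups were apart by nearly as large a factor as for CXCL1, at a level far lower. The log2 fold change was 1.16 ± 0.14, a 2.24-fold rise (edgeR adjusted p = 1.6e-07). CXCL2 (ENSG00000081041, chr4:74962752-74965010), also called MIP-2 alpha, had 1798 and 1692 normalized counts in BLU6864 cells, against 999.5 and 1361 in DMSO cells. Its rise of 1.49-fold was the smallest of the 5, with a log2 fold change of 0.57 ± 0.12 (edgeR adjusted p = 4.2e-04). It stood at 0.36 without DMSO replicate 1 and at 0.80 without DMSO replicate 2.

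The 3 genes resemble each other, and reads of 50 bases can fit more than 1 of them. Of the 50-base words in the CXCL2 transcript, 10.1% recur in another gene, and the share was 5.33% for CXCL1 and 5.26% for CXCL3. How the counting treated such reads is not given in the sources used here. Summed into 1 feature, the 3 genes had a log2 fold change of 1.21 ± 0.13 (edgeR adjusted p = 3.8e-08).

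IL8 (ENSG00000169429, chr4:74606223-74609433), the main human neutrophil attractant and an angiogenic factor, had 30134 and 35063 normalized counts in BLU6864 cells, against 22807 and 40413 in DMSO cells. Both BLU6864 libraries fell between the DMSO libraries. The log2 fold change was 0.05 ± 0.18 with a 95% interval of -0.30 to 0.39 (edgeR adjusted p = 0.842). The value turned on the DMSO library kept: it was 0.52 (adjusted p = 7.1e-04) without DMSO replicate 2 and -0.31 (adjusted p = 0.0524) without DMSO replicate 1.

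DMSO replicate 2 stood above DMSO replicate 1 for 7 of the 8 tested members, by 1.22-fold to 1.77-fold, and CXCL16 was the exception at 0.828. Among all tested genes 45.8% were higher in DMSO replicate 2 and 15.3% by more than 1.2-fold, and only 1.7% exceeded the ratio of IL8. In BLU6864 cells replicate 2 was above replicate 1 for 4 of the 8 members, with ratios of 0.811 to 1.16. The DMSO libraries were thus further apart than the BLU6864 libraries for most of the chemokines, and what set them apart was not tested.

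CXCL5 and CXCL6, the remaining CXCR2 ligands of the cluster, were almost without reads. CXCL5 (ENSG00000163735, chr4:74861359-74864496) had 8 and 0 reads in BLU6864 cells and 0 and 0 reads in DMSO cells. CXCL6 (ENSG00000124875, chr4:74702214-74714781) had 1 and 0 reads in BLU6864 cells and 0 and 0 reads in DMSO cells. A count of 0 allows up to 3 reads, or 0.106 to 0.126 CPM in these libraries, so lower levels were not detectable at this depth. Neither passed the filter on low counts. Without that filter CXCL5 had an edgeR adjusted p of 0.0496 that rested on the 8 reads of 1 library, and CXCL6 had one of 0.583. DESeq2 gave neither an adjusted p.

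Within the cluster, the mix of transcripts differed between the groups. IL8 made up 53.5% and 57.5% of the reads of the 6 genes in BLU6864 cells, against 69.4% and 76.3% in DMSO cells. CXCL1 made up 42.6% and 39.0% in BLU6864 cells, against 27.1% and 20.7% in DMSO cells. The ratio of IL8 to CXCL1, taken within each library, was 1.26 and 1.47 in BLU6864 cells and 2.56 and 3.69 in DMSO cells. These groups did not overlap. The ratio of CXCL2 to CXCL3 was 4.38 and 3.79 in BLU6864 cells and 5.75 and 6.41 in DMSO cells, again without overlap. The ratio of CXCL1 to CXCL3 was closer in both groups, at 58.4 and 53.3 in BLU6864 cells and 51.2 and 51.6 in DMSO cells. The exact permutation test of such a ratio (two-sided) cannot go below p = 0.333 with 2 libraries against 2, so none could pass.

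None of the 4 tested genes around the cluster rose, too few to compare with the 20.3% higher and 22.0% lower among all tested genes. Of the 12 other genes within 500000 bases of it, 4 were tested, 0 rose and 3 fell, with a median log2 fold change of -1.51. MTHFD2L, a mitochondrial folate enzyme gene 14881 bases from CXCL2, had 437 and 446 normalized counts in BLU6864 cells, against 912 and 1316 in DMSO cells (log2 fold change -1.33 ± 0.14, edgeR adjusted p = 1.2e-08). EREG, which encodes the EGF receptor ligand epiregulin, had 2354 and 2300.4 in BLU6864 cells, against 7019 and 8164 in DMSO cells (-1.70 ± 0.12, adjusted p = 3.7e-12). EPGN, the gene of the related ligand epigen, had 2 and 5 reads in BLU6864 cells, against 13 and 19 in DMSO cells (-2.16 ± 0.59, adjusted p = 0.00433). The platelet chemokine genes PF4, PF4V1 and PPBP, which lie among the members, had 0 reads in every library. In order along the chromosome, the plot of changes by locus sets the 3 genes that rose directly beside 3 that fell.

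**Figure D2:**
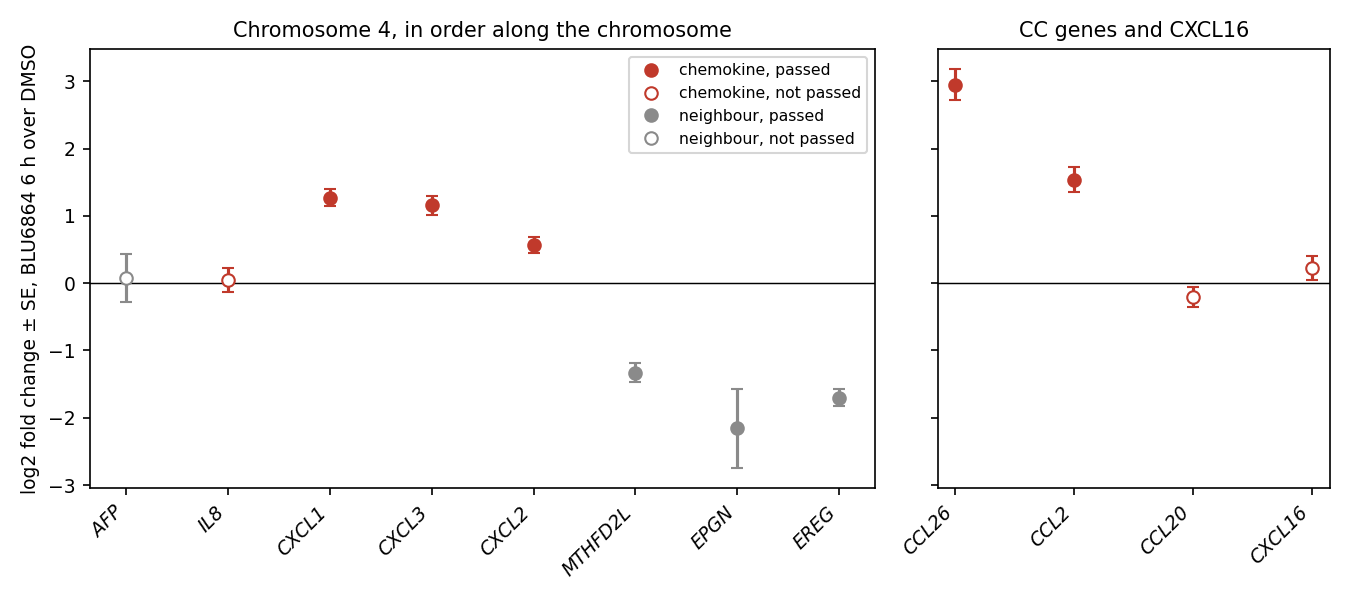
Log2 fold changes ± SE (vertical axes, BLU6864 over DMSO) of the tested genes on chromosome 4 in order of position (left, not to distance) and of the CC genes and CXCL16 (right), with filled points past an adjusted p of 0.05. CXCL1, CXCL3 and CXCL2 lie at 1.27, 1.16 and 0.57, the neighbours MTHFD2L, EPGN and EREG at -1.33, -2.16 and -1.70, and CXCL5 and CXCL6 were not tested and are left out.

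CCL26 (ENSG00000006606, chr7:75398851-75419214) showed the largest rise of the tested chemokine genes. It had 164 and 204 reads in BLU6864 cells, against 20 and 27 reads in DMSO cells. In normalized counts this was 172 and 191 in BLU6864 cells and 18.3 and 29.5 in DMSO cells, and the lower BLU6864 library lay far above the higher DMSO library. The log2 fold change was 2.95 ± 0.23, a 7.73-fold rise (edgeR adjusted p = 4.7e-11), and it ranged from 2.62 to 3.31 as each library was left out.

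CCL2 (ENSG00000108691, chr17:32582304-32584222), the monocyte attractant MCP-1, had 207 and 202 normalized counts in BLU6864 cells, against 61.3 and 81.0 in DMSO cells. The groups were well apart. The means were 205 ± 3.3 in BLU6864 cells and 71.1 ± 13.9 in DMSO cells (SD, n = 2 each), a log2 fold change of 1.54 ± 0.18 (edgeR adjusted p = 8.0e-08). No other gene was detected at its locus: the 8 other genes within 500000 bases, among them the monocyte and eosinophil attractants CCL7, CCL8, CCL11, CCL13 and CCL1, had 0 reads in every library.

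CCL20 (ENSG00000115009, chr2:228678558-228682272), also called MIP-3 alpha, had 268 and 217 normalized counts in BLU6864 cells, against 236 and 324 in DMSO cells. The groups overlapped, and the log2 fold change was -0.20 ± 0.15 with a 95% interval of -0.50 to 0.11 (edgeR adjusted p = 0.318). It too turned on a DMSO library: the value was -0.42 (adjusted p = 0.00661) without DMSO replicate 1 and 0.03 without DMSO replicate 2.

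CXCL16 (ENSG00000161921, chr17:4636821-4643217) encodes a chemokine made as a membrane protein, released by the protease ADAM10 and bound by CXCR6. It had 109 and 115 normalized counts in BLU6864 cells, against 104 and 86.4 in DMSO cells. The groups did not overlap by a narrow margin, and the log2 fold change was 0.23 ± 0.18 with a 95% interval of -0.13 to 0.59 (edgeR adjusted p = 0.321). CXCL16 overlaps MED11 on the other strand, which had 481 and 650 reads in BLU6864 cells and 514 and 506 in DMSO cells, and whether the counting used strand is not given in the sources used here.

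By class, 3 of the 4 tested genes of the CXC cluster and 2 of the 3 CC genes rose, with median log2 fold changes of 0.87 and 1.54. Among all tested genes 20.3% were higher, 22.0% were lower and the median was 0.01. Classes of 4 and 3 tested genes are too few to compare with these shares. Each class held 1 gene whose groups overlapped, IL8 and CCL20. The summed normalized counts of the cluster were 56324 and 61005 in BLU6864 cells, against 32879 and 52949 in DMSO cells, and most of that sum was IL8 and CXCL1. The CC genes summed to 647 and 611 in BLU6864 cells, against 316 and 434 in DMSO cells. The ratio of CCL2 to CCL26 was 1.2 and 1.06 in BLU6864 cells and 3.35 and 2.74 in DMSO cells, and that of CCL20 to CCL2 was 1.29 and 1.07 in BLU6864 cells and 3.85 and 4.0 in DMSO cells. No test of the difference between the classes was run.

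Levels between genes were compared as RPKM, reads scaled to the length of the canonical GENCODE transcript and to the total count of the library. In BLU6864 cells CXCL1 (813 and 807) and IL8 (730 and 850) overlapped at the top, while in DMSO cells IL8 (536 and 947) lay above CXCL1 (293 and 359). CXCL2 came next in both groups, with 64.2 and 60.4 in BLU6864 cells and 34.6 and 47.0 in DMSO cells. Below it, CXCL3 (15.2 and 16.5) overlapped CCL26 (14.4 and 16.0) in BLU6864 cells, and CCL20 (12.8 and 10.4) overlapped CCL2 (11.1 and 10.9). In DMSO cells the order was CCL20 (10.9 and 14.9), CXCL3 (6.24 and 7.60) and CCL2 (3.19 and 4.2), with CCL26 (1.49 and 2.39) and CXCL16 (1.73 and 1.43) overlapping at the bottom. CXCL16 was lowest of the tested members in BLU6864 cells, at 1.87 and 1.97. CCL26 thus sat beside CXCL16 in DMSO cells and beside CXCL3 in BLU6864 cells.

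CCL26, CCL2, CXCL1, CXCL3 and CXCL2 passed under every alternative run, and the calls of IL8 and CCL20 changed when a DMSO library was left out. Among the values with 1 library left out, the lowest came without DMSO replicate 1 and the highest without DMSO replicate 2 for 7 of the 8 members, and CXCL16 had the reverse order.

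**Figure D3:**
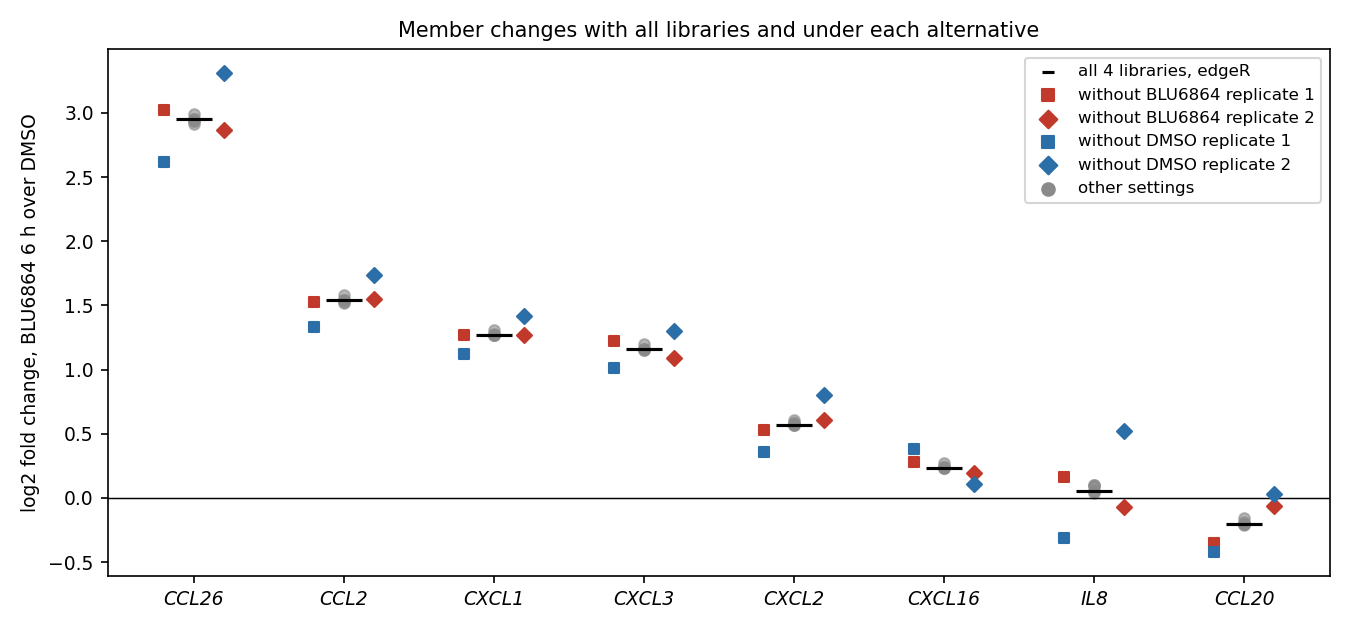
Log2 fold changes (vertical axis, BLU6864 over DMSO) of the 8 tested chemokine genes with all 4 libraries (black bars), without each library in turn (red and blue squares and diamonds) and under other settings (grey circles). CCL26, CCL2, CXCL1, CXCL3 and CXCL2 stay above 0 throughout, while IL8 spans -0.31 to 0.52 and CCL20 spans -0.42 to 0.03.

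At the CCL26 locus, 8 of the 10 other genes within 500000 bases were tested, 3 rose and 1 fell, with far smaller changes than CCL26. The cytochrome P450 reductase gene POR rose by a log2 fold change of 0.66 ± 0.11 (edgeR adjusted p = 2.2e-05), SRRM3 by 0.83 ± 0.14 and RHBDD2 by 0.27 ± 0.11, while POM121C, a nucleoporin gene, fell by 0.34. The gene of the other eotaxin there, CCL24, had 0 reads in BLU6864 cells and 2 and 0 reads in DMSO cells. At the CCL20 locus 2 of 7 neighbours were tested and neither passed. At the CXCL16 locus 21 of 34 neighbours were tested, 5 rose and 2 fell. Among them SMTNL2 had 160 and 166 reads in BLU6864 cells, against 0 and 2 in DMSO cells, a read ratio of 167 (exact binomial 95% interval 45.9 to 1390, counting error only). SPNS2, ENO3, RNF167 and MINK1 rose with log2 fold changes of 1.44, 1.26, 0.46 and 0.35, MYBBP1A had -0.94 and PELP1 -0.29, and SPNS2, MYBBP1A, MINK1, RNF167 and ENO3 each overlap another gene of the table.

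Of the 38 other chemokine ligand genes in the table, 29 had 0 reads in every library and 5 were tested, of which 3 rose and 1 fell (median log2 fold change 0.56). CCL4 (MIP-1 beta) had 50 and 77 reads in BLU6864 cells, against 8 and 6 in DMSO cells (3.15 ± 0.36, edgeR adjusted p = 7.6e-08). The near-identical copies CCL4L1 and CCL4L2 had 0 reads, so how reads were shared with them is uncertain. CXCL10, an interferon-induced T cell attractant, had 17 and 21 reads in BLU6864 cells, against 0 and 2 in DMSO cells, a read ratio of 19.5 (exact binomial 95% interval 5.04 to 167; edgeR adjusted p = 6.9e-05). The membrane-bound chemokine gene CX3CL1 rose by 0.56 ± 0.15 on the log2 scale (adjusted p = 0.00346). CCL5 (RANTES) went the other way, with 56.7 and 65.6 normalized counts in BLU6864 cells and 118 and 121 in DMSO cells (-0.96 ± 0.19, adjusted p = 2.6e-04). CCL4, CXCL10 and CCL26 were the ligands with few reads in DMSO cells that stood several-fold higher in BLU6864 cells.

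The receptors of these ligands were nearly without reads. Of 23 receptor genes, 2 were tested, and CCR10 rose (84.1 and 67.4 normalized counts in BLU6864 cells, 54.0 and 35.0 in DMSO cells, log2 fold change 0.74 ± 0.24, edgeR adjusted p = 0.015) while CCRL2 did not pass. CXCR1 and CCR2 had 0 reads in every library. CXCR2 had 0 and 1 reads in BLU6864 cells and 0 and 0 in DMSO cells, CCR3 had 1 and 0 in BLU6864 cells and 0 and 0 in DMSO cells, and CCR6 had 1 and 2 in BLU6864 cells and 0 and 1 in DMSO cells.

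Of 15 tested genes for cytokines that induce chemokines and for their receptors, 2 rose and 8 fell (median log2 fold change -0.35). IL1B, which encodes a strong inducer of IL8 and CXCL1, had 571 and 643 normalized counts in BLU6864 cells, against 16119 and 19541 in DMSO cells (-4.87 ± 0.15, edgeR adjusted p = 1.0e-18). IL33, LIF and IL1A had log2 fold changes of -1.84, -1.5 and -1.12. TNF had 141 and 138 normalized counts in BLU6864 cells and 150.1 and 173 in DMSO cells and did not pass (adjusted p = 0.318). IL6 had 838 and 919 in BLU6864 cells and 777 and 1375 in DMSO cells, with the BLU6864 libraries between the DMSO libraries as for IL8.

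Among 17 tested NF-kB subunits, activators and inhibitors, 4 rose, 1 fell and 12 did not pass (median log2 fold change 0.01, against 0.01 over all tested genes). Those that rose were TNFAIP3 (A20) by 1.12 ± 0.10, BCL3 by 1.01 ± 0.11, the inhibitor of apoptosis gene BIRC3 by 0.79 ± 0.12 and NFKBIA, the gene of I kappa B alpha, by 0.54 ± 0.12. Other genes of the list that NF-kB is known to induce did not pass, with log2 fold changes of -0.05 for NFKB2, 0.05 for RELB, 0.02 for NFKBIE and -0.11 for TNIP1. TRAF1, also a known NF-kB target, had 134 and 182 normalized counts in BLU6864 cells, against 643 and 547 in DMSO cells (-1.90 ± 0.15, edgeR adjusted p = 5.5e-11). Of the 12 AP-1 and C/EBP genes, 5 rose and 5 fell (median 0.14). FOSL1, FOSB, JUN and FOS, which form AP-1 dimers, had log2 fold changes of -3.32, -2.29, -2.13 and -2.0. CEBPD rose by 1.87 ± 0.12 and JUND by 1.16 ± 0.11.

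**Figure D4:**
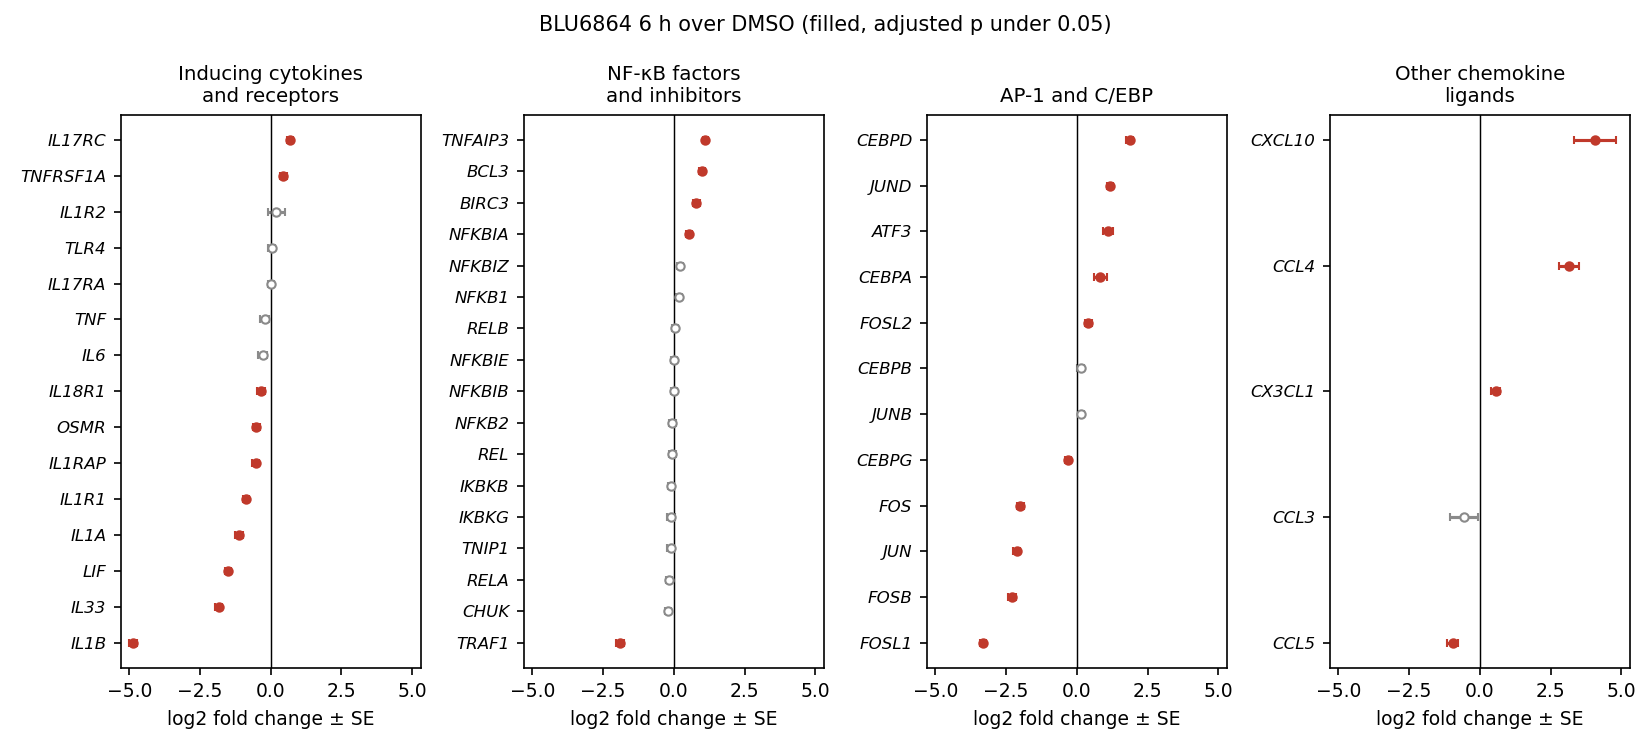
Log2 fold changes ± SE (horizontal axes, BLU6864 over DMSO) of the tested genes in 4 lists, filled and red where the adjusted p was under 0.05. IL1B lies at -4.87 and FOSL1 at -3.32, while TNFAIP3 at 1.12, CEBPD at 1.87 and CCL4 at 3.15 lie on the other side of 0.

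Interleukin-4 and interleukin-13 are the known inducers of CCL26 and act through STAT6. IL4 had 1 and 0 reads in BLU6864 cells and 0 and 0 in DMSO cells. IL13 had 2 and 2 reads in BLU6864 cells and 1 and 0 in DMSO cells, and neither had enough reads to be tested. Of 10 tested genes of the pathway of these cytokines 2 rose and 3 fell (median log2 fold change -0.07). Among all tested genes 20.3% were higher and 22.0% lower. SOCS1, a feedback inhibitor, had 369.8 and 379 normalized counts in BLU6864 cells, against 2004 and 1732 in DMSO cells (-2.31 ± 0.12, edgeR adjusted p = 1.0e-14). The receptor genes went both ways: IL4R and IL13RA2 fell, with log2 fold changes of -1.13 and -1.17, and IL13RA1 rose, with 0.51 (adjusted p = 6.5e-04). CISH, another feedback inhibitor, had 63 and 81 reads in BLU6864 cells, against 5 and 9 in DMSO cells (3.33 ± 0.35). STAT6 itself stood at 0.10 ± 0.11 and did not pass. The 3 genes whose profile over the 4 libraries was nearest to that of CCL26, by Euclidean distance of centred log2(normalized count + 1) among 10682 genes, were MAP1LC3C (distance 0.261), CDK15 (0.346) and EFNA1 (0.352). MAP1LC3C had 756 and 785 normalized counts in BLU6864 cells, against 97.0 and 123 in DMSO cells. Nearest to IL8 were RP11-295P9.3 (0.093), ZNF700 (0.123) and THOC7 (0.134), which likewise had the DMSO libraries at both ends. The genes nearest to CXCL5, STOX1, ANG and FAM177B, were far from it, at 1.948 to 2.061.

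Many chemokine transcripts carry AU-rich elements and are short-lived, which was not examined for the members here. Of 12 tested genes of AU-rich mRNA decay and stabilisation, 3 rose and 3 fell (median log2 fold change -0.11). ZC3H12A (Regnase-1), an endonuclease that destroys cytokine mRNA, had 4485 and 4469 normalized counts in BLU6864 cells, against 1870 and 1847 in DMSO cells (1.27 ± 0.11, edgeR adjusted p = 2.1e-10). The decay factor gene ZFP36L2 rose by 1.23 ± 0.11 and TIA1, whose protein holds AU-rich mRNA from translation, by 0.56 ± 0.11, while HNRNPD (AUF1) fell by 0.53. Of 9 proteases and syndecans that cut, bind or shed chemokines, 3 rose and 5 fell (median -0.29). SDC4, MMP14, SDC1 and MMP9 had log2 fold changes of -1.32, -0.92, -0.74 and -0.64. Those that rose were MMP2, ADAM17 and DPP4, with 0.61, 0.46 and 0.29. ADAM10, which sheds CXCL16, stood at 0.26 ± 0.12 and did not pass (edgeR adjusted p = 0.0777).

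Markers of other cell types were checked because leukocytes, endothelium and fibroblasts also make chemokines. Of the thyroid markers 4 of 8 were tested (PAX8, FOXE1, TG and HHEX) and all 4 fell. PAX8 had 20093 and 21522 normalized counts in BLU6864 cells and 27445 and 26145 in DMSO cells. NKX2-1 and TSHR had 0 reads, and the thyroid origin is that stated for the line. Of 6 epithelial markers 4 were tested. KRT7 rose by a log2 fold change of 0.41, KRT18 had -1.02, and KRT8 and KRT19 did not pass. Of 10 leukocyte markers 3 were tested, CD14 rose, CSF1R fell and CD68 did not pass. Their summed normalized counts were 4765 and 4560.4 in BLU6864 cells and 5793 and 5158 in DMSO cells, nearly all of it CD68, which macrophages share with many other cells (4678 and 4481 in BLU6864 cells, 5690.4 and 5058 in DMSO cells). The defining genes CD3E, MS4A1 and FCGR3A had 0 reads, and PTPRC (CD45) had 1 and 5 reads in BLU6864 cells and 2 and 2 in DMSO cells. Endothelial markers summed to 39.9 and 43.1 in BLU6864 cells and 45.8 and 54.7 in DMSO cells, with 2 of the 5 in the table tested, VWF higher (log2 fold change 1.56, edgeR adjusted p = 0.029) and ERG lower (-0.87, adjusted p = 0.0326). Fibroblast markers summed to 810.1 and 856 in BLU6864 cells and 769 and 724 in DMSO cells, with 4 of 8 tested, 2 higher and 1 lower, and COL1A2, COL3A1 and DCN at 0 reads. Their part in the chemokine changes was not tested.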

How the data were processed

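RNA sequencing counts of 4 TPC1 libraries were analysed, grouped by their labels. Per the labels, RNA was column-purified and TruSeq libraries were read as 50-base single ends. The submitters' processing notes name STAR 2.3, hg19 and DESeq2, without a DESeq2 version, whereas the study's methods describe paired ends. Both BLU6864 titles carry a mark of re-analysis and neither DMSO title does. Any effect of what the mark stands for cannot be told apart from that of BLU6864. The counter, the annotation and any use of strand were not given in the sources used here. The deposited table of the authors held raw counts and normalized counts, a signal that they obtained by dividing counts by a size factor per library. Its columns of the authors' own fold changes, standard errors and p-values were not used. Coordinates of genes are those of the deposited table (hg19).

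The main test was that of edgeR 4.0.16 under R 4.3.3 (filterByExpr, TMM, quasi-likelihood, two-sided, group as the only factor) and adjusted by Benjamini-Hochberg over 12696 of 20372 genes, 4143 of which had no read. A gene passed at an adjusted p under 0.05. The fit was tested on simulated data with the same dispersion for every gene and far fewer changed genes than passed here. That test therefore does not show how reliable the calls are in these libraries. DESeq2 1.42.0 (the study's tool), limma 3.58.1 on log2(normalized count + 1), other scalings, no filter, the replicate block, each library left out and the summed CXCL1, CXCL2 and CXCL3 were the alternatives. Transcript lengths and shared 50-base words came from GENCODE 44, and promoters from RefSeq tables (GRCh38.p14), with no coordinates carried between builds. The members and gene lists were chosen with earlier results of these data known. All members were named, with up to 4 genes per list by smallest adjusted p among those that passed, up to 6 passing neighbours per locus within 500000 bases, and the 3 nearest profiles (mean normalized count of at least 100) of IL8, CXCL5 and CCL26. Other genes named, such as NFKBIA, NFKB2, RELB, NFKBIE, TNIP1, IL13RA1, CEBPD, JUND, TNF, IL6, STAT6, ADAM10, PELP1, CCL24 and the receptors without enough reads, were chosen after their values were seen.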

Additional observations from a re-analysis of the deposited data

How the results depend on the processing

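The log2 fold changes of the 8 tested members gave 83 values under 11 alternatives, and 78 kept their direction and their side of the threshold. The other 5 belong to IL8 and CCL20 and arose when a library was left out. IL8 then ranged from -0.31 to 0.52 and CCL20 from -0.42 to 0.03. IL8 was also -0.07 without BLU6864 replicate 2. CXCL1, CXCL2, CXCL3, CCL2 and CCL26 passed under every alternative run for them. The sum of CXCL1, CXCL2 and CXCL3 gave 1 value, which was counted among the 83 for each of these genes. Most of its reads were those of CXCL1, so it is no separate check of CXCL2 or CXCL3. The number of members that passed was 5 with all libraries and 5 to 6 as each library was left out, and 6 without the filter on low counts. Over all genes 5364 passed, against 2740 to 6932 as each library was left out (1250 to 3311 higher and 1490 to 3621 lower), with the lowest counts, 3136 and 2740, without BLU6864 replicate 1 and without BLU6864 replicate 2. A group then held 1 library, assumed to vary like the other group, and the cause was not tested. DESeq2 passed 4265 genes. The median log2 fold change of all genes was 0.014 and lay between 0.004 and 0.056 under the alternatives.

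The replicate numbers are shared by the groups, but the labels do not say that they mark a pairing. Deviations within a replicate number correlated at r = 0.132 over 12696 genes with only 2 pairs. With the replicate block 5963 genes and 5 members passed, and the call of no tested member changed. Depth limits CXCL5 and CXCL6, which had 9 reads between them.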
